A study of Mus musculus with 8 samples.

Results

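The genes described here are 10 components of the transforming growth factor beta (TGF-beta) system of the mouse, chosen by name among the 28001 identifiers counted in each of 8 single-cell RNA libraries. They are 3 ligands (Tgfb1, Tgfb2 and Tgfb3), 3 receptors (Tgfbr1, Tgfbr2 and Tgfbr3) and 4 latent binding proteins (Ltbp1, Ltbp2, Ltbp3 and Ltbp4), and every one of them had unique molecular identifiers (UMIs, the molecules counted in this assay) in all 8 libraries. The libraries were made from forelimbs of C57BL/6J embryos. The sorted cells came from embryos of the genotype Hic1CreERT2/CreERT2;Rosa26LSLtdTomato/tdTomato, which carry a tamoxifen-inducible Cre under Hic1 and a Cre-dependent tdTomato reporter. Dams received 7.5 mg of tamoxifen by gavage at embryonic day (E) 10, so that cells using the Hic1 promoter around that time, and their descendants, carry tdTomato. Sorted tdTomato+ cells were profiled on each day from E11.5 to E14.5 and again at E16.5, the last as a proximal library (lower upper arm, elbow and upper forearm) and a distal library (lower forearm, wrist and paw). A pair of whole limb libraries at E11.5 held Hic1;tdTomato+ and Hic1;tdTomato- cells together. Limbs of several embryos were pooled for a library, and cells with blood and vessel surface markers were removed in the sort. Each sorted group is 1 library, so values between these libraries carry counting error only, and no test between them was possible.

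TGF-beta ligands are secreted as inactive complexes with their own propeptide, which latent binding proteins tether to the extracellular matrix. Integrins and proteases release the active ligand, which binds Tgfbr2, and Tgfbr2 then phosphorylates Tgfbr1, the kinase that passes the signal to Smad2 and Smad3. Tgfbr3, also called betaglycan, is a co-receptor that presents ligand, above all the product of Tgfb2, to the signalling pair. In limb development the pathway is known for its part in the formation of tendons, joints and perichondrium and in the control of cartilage growth. Ltbp1, Ltbp3 and Ltbp4 bind latent TGF-beta, whereas Ltbp2 is a microfibril-associated relative that does not bind it.

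On the build GRCm38, the ligand genes lie at chr7:25687002-25705077 on the plus strand (Tgfb1), chr1:186622792-186705989 on the minus strand (Tgfb2) and chr12:86056745-86079041 on the minus strand (Tgfb3). The receptor genes lie at chr4:47353222-47414931, plus strand (Tgfbr1), chr9:116084293-116175360, minus strand (Tgfbr2), and chr5:107106570-107289629, minus strand (Tgfbr3). The latent binding protein genes lie at chr17:75005568-75392512, plus strand (Ltbp1), chr12:84783212-84876532, minus strand (Ltbp2), chr19:5740904-5758532, plus strand (Ltbp3), and chr7:27305136-27337692, minus strand (Ltbp4). Tgfb2, Tgfb3, Tgfbr3, Ltbp2 and Ltbp3 overlap annotated genes of the opposite strand, and the strand setting of the counting is not given in the sources used here. No gene counted in the files overlaps a member on the same strand.

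The 250 bases before the RefSeq start of 3 members are shown, because Tgfb1 and Tgfb2 are ligands with unlike courses over the stages, and Ltbp1 is the member that differed most between the E16.5 segments. Each is written 5′ to 3′ on the strand of its gene (build GRCm38.p6), with capitals at matches to any of 4 motifs searched on both strands, the GC box GGGCGG, the TATA box TATAAA, the cyclic AMP response element TGACGTCA and the Smad palindrome GTCTAGAC. The windows are chr7:25686752-25687001 on the plus strand for Tgfb1, chr1:186705990-186706239 on the minus strand for Tgfb2 and chr17:75005279-75005528 on the plus strand for the first of the annotated Ltbp1 starts.
Tgfb1: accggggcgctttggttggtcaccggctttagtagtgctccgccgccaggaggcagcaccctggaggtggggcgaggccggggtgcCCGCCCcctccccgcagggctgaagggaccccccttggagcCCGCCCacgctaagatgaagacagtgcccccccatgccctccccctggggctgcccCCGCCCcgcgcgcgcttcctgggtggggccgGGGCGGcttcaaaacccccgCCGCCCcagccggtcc
Tgfb2: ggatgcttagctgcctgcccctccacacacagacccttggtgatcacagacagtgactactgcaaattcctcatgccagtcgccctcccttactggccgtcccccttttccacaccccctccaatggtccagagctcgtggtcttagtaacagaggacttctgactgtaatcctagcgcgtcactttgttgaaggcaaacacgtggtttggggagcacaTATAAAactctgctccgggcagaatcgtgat
Ltbp1: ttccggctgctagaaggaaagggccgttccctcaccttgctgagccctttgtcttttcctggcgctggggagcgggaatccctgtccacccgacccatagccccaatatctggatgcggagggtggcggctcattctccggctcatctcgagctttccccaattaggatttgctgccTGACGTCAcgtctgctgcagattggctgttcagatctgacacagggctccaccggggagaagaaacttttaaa
The Tgfb1 window held 5 GC boxes and no TATA box at a GC content of 75.2%. The Tgfb2 window held 1 TATA box and no GC box at 53.6%. The Ltbp1 window held 1 cyclic AMP response element at 56.8%, and the Smad palindrome was in none of the 3 windows. Of all 32851 promoter windows of this length, whose median GC content was 52.4%, a GC box was in 32.7%, a TATA box in 12.4%, the cyclic AMP response element in 1.55% and the Smad palindrome in 0.167%. RefSeq promoters were at hand for 8 of the 10 members, and these matches describe letters, not bound sites.

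Cells with at least 3000 UMIs and at most 10% mitochondrial UMIs were kept, between 3165 (E11.5 sorted) and 11109 (E16.5 proximal) per library, with median depths of 6788 to 18473 UMIs. Levels are given as CPM, the UMIs of a gene, summed over the cells of a library, per 1000000 UMIs of all genes, with exact Poisson 95% intervals in brackets. Brackets after a ratio hold its exact conditional binomial 95% interval. Epithelial-like clusters, present at E14.5 and E16.5, were left out of the library sums. The limb mesenchyme genes Prrx1, Pdgfra and Twist1 were present in all 8 libraries, though not at steady levels. Prrx1 was at 235 to 309 CPM in the sorted libraries and at 702 and 659 in whole limb 1 and 2. Pdgfra was at 120 to 282 CPM. Twist1 was at 86.8 CPM at E13.5 and 541 at E14.5, the step at which the kit changed. Hic1 lay between 23.7 and 38 CPM in the sorted libraries against 0.773 and 0.785 in whole limb 1 and 2, and the reporter between 431 and 1410 CPM against 3.76 and 4.31. Libraries shared at most 1.04% of their cell barcodes. The kit version and the dissociation enzymes changed between stages in the study's methods, so stage and protocol cannot be told apart, and in library sums fewer cells of a type and less RNA per cell cannot be told apart.

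The course of the levels from E11.5 to E16.5 was examined first. Between E11.5 and E16.5 proximal, 6 of the 10 members were at least 2-fold higher (Tgfb1, Tgfbr2, Tgfbr3, Ltbp2, Ltbp3 and Ltbp4) and 1 was at least 2-fold lower (Tgfbr1). Of the 9199 genes that reached 10 CPM in at least 1 of both libraries, 12.7% were at least 2-fold higher and 29.5% at least 2-fold lower. The median log2 ratio was 1.48 over the members and −0.50 over all these genes. With TMM scaling, which sets the bulk of genes near equal, the medians were 1.88 and −0.06, and Tgfbr1, at a log2 ratio of −0.69, was then short of 2-fold. The sorted libraries up to E14.5 were of undivided forelimbs, so ratios to E16.5 proximal set a whole forelimb against 1 segment. In the E16.5 distal library Tgfbr1 stood at 47.6 CPM (80.5 at E11.5) and Ltbp1 at 126.2 CPM (32.8 at E11.5).

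Among the ligands, Tgfb2 had a mid-course maximum. In order of stage, its 5 levels from the E11.5 to the E16.5 proximal library were 95.9 CPM [92.5 to 99.4], 190.4, 226.1 [221.8 to 230.5], 145.6 and 73.8 [72.6 to 75]. The E13.5 level was 2.36-fold the E11.5 level [2.26 to 2.46] and the E16.5 proximal level 0.507-fold the E14.5 level, while the E16.5 distal level was 139.8 CPM. The end points stood in a ratio of 0.77, whose log2 value of −0.38 became 0.03 with TMM scaling, so no direction from E11.5 to E16.5 is given for Tgfb2. Markers of other cell types had their highest sums at E13.5 as well, the 6 neuronal markers at 15.3, 44.2, 107, 75.2 and 36 CPM and the 8 endothelial markers at 6.38, 22, 28.5, 21.4 and 15.7 CPM over the 5 libraries, with no marker of either list at 0, and their part in the Tgfb2 course was not tested. Tgfb3, a ligand known for its part in palate fusion, was also highest at E13.5. Its levels were 51, 62.9, 68.3, 45.7 and 28.8 CPM from E11.5 to E16.5 proximal, and the last was 0.565-fold the first [0.534 to 0.597]. In the E16.5 distal library Tgfb3 stood at 49.6 CPM, near its E11.5 level.

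Tgfb1 was low early and higher late. Its levels over the same stages were 2.76 CPM [2.21 to 3.41], 3.66, 3.525, 7.59 and 13.6 [13.1 to 14.1], and the last was 4.92-fold the first [3.98 to 6.17]. Of the 87 Tgfb1 UMIs at E11.5, 30 lay in 1 cell. Without the 11 cells of that library that fell outside mesenchymal clusters the ratio was 8.51 [6.44 to 11.5]. Because Tgfb1 is also made by blood and vessel cells, the few cells with at least 3 markers of these types were left out, after which its levels were 2.76, 3.53, 3.42, 7.15 and 13.5 CPM. The summed level of the 8 immune markers was between 4.08 and 9.64 CPM over the 8 libraries, and that of the 8 endothelial markers between 4.12 and 28.5 CPM. That of the 8 erythroid markers was between 0.176 and 0.816 CPM in the sorted libraries from E11.5 to E14.5, 5.47 and 4.9 CPM in the mesenchymal cells of the whole limb libraries, 110 CPM in the E16.5 proximal and 75.8 CPM in the E16.5 distal library. Among the sorted libraries it was therefore higher at the stage where Tgfb1 was. Without the marked cells, those with at least 3 erythroid markers included, Tgfb1 stood at 13.5 and 20.1 CPM in these 2 libraries.

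The receptor genes had opposite courses. Tgfbr1, the kinase that carries the signal into the cell, had its highest level at E11.5 (80.5 CPM [77.4 to 83.7]) and was lower in each later library up to E16.5 proximal, with 67.05, 45.6, 40.9 and finally 37.7 [36.9 to 38.6], so that the last level was 0.468-fold the first [0.448 to 0.49]. In the E16.5 distal library it stood at 47.6 CPM, above the E14.5 level. Its steps after E13.5 were small and changed sign with TMM scaling, from a log2 ratio of −0.16 to 0.04 between E13.5 and E14.5 and from −0.12 to 0.11 between E14.5 and E16.5 proximal. Tgfbr2, which binds the ligand first, was at 14.2 CPM [12.9 to 15.6], 22.4, 23.5, 36.7 and 59 [58 to 60.1] at the same stages, a ratio of 4.16 [3.78 to 4.58]. The intervals at E12.5 and E13.5 overlapped. Tgfbr3 was at 15.3 CPM [13.9 to 16.7], 17.8, 18, 27.45 and 47.7 [46.7 to 48.7], a ratio of 3.12 [2.85 to 3.43]. Its E12.5 and E13.5 intervals also overlapped.

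The 4 latent binding proteins each had a course of their own. Ltbp2 was barely detected at first, with 6 UMIs in 3165 cells at E11.5 (0.19 CPM [0.07 to 0.415]), and its later levels were 0.814, 2.95, 3.15 and 15.5 CPM [15 to 16.1]. The ratio over the course was 81.4 [37.4 to 222], and the step from E14.5 to E16.5 proximal alone was 4.92-fold [4.44 to 5.47]. Ltbp3, needed for normal bone growth, was at 5.11 CPM [4.35 to 5.96], 9.68, 18.2, 55.8 and 54.1 [53.1 to 55.2], a ratio of 10.6 [9.06 to 12.4]. It was 3.57-fold higher at E13.5 than at E11.5 [3.01 to 4.25] and 3.06-fold higher at E14.5 than at E13.5 [2.85 to 3.29], and the last step had a log2 ratio of −0.04, or 0.18 with TMM scaling. Ltbp4, a protein of elastic fibre assembly, was at 14.1 CPM, 12.7, 10.3, 23 and 35, so that it was lowest at E13.5 and 2.24-fold higher at E14.5 [2.03 to 2.47]. Up to the E16.5 proximal library, Ltbp1 was highest at E14.5, with 32.8 CPM, 37.4, 40.4, 79 and 41.4. Its end points differed by a ratio of 1.26. The E16.5 distal library stood at 126.2 CPM, above E14.5, so this maximum holds against the proximal segment only.

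**Figure D1:**
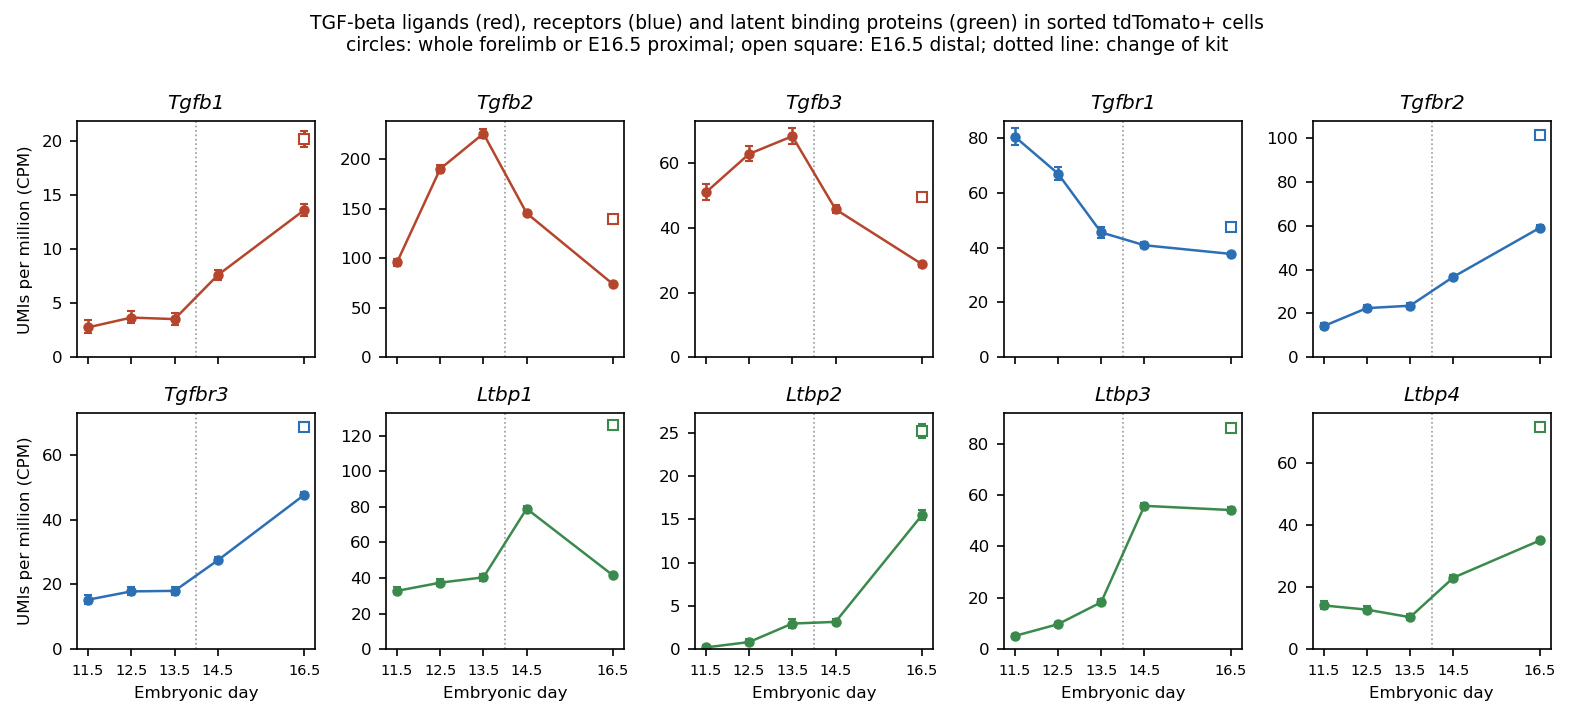
Level of each member in the 6 sorted libraries (vertical axis, CPM on a linear scale) against embryonic day, with exact Poisson 95% intervals as bars and both E16.5 segments marked. Tgfb2 is highest at E13.5, at 226.1 CPM, while Ltbp2 spans 0.19 CPM at E11.5 to 25.2 CPM in the E16.5 distal library.

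Single steps of the course gave few 2-fold changes. Between E11.5 and E13.5, 2 of the 8 members with enough signal were called higher (Tgfb2 and Ltbp3), against 4.78% of the 8891 genes tested, and 4.02% of these genes were lower. Between E13.5 and E14.5, the step at which the kit changed, 2 of 8 (Ltbp3 and Ltbp4) were called higher, against 4.51% of 8817 genes (5.81% lower). Ltbp1 lay just short of 2-fold in this step on the CPM scale (log2 ratio 0.97). With TMM scaling the median log2 ratio of all genes there moved from −0.18 to 0.02. Between E14.5 and E16.5 proximal, 1 of 10 (Ltbp2) was called higher, against 5.40% of 8562 genes, and none was lower, against 5.79%. With TMM scaling Tgfb1 (log2 ratio 1.07) and Tgfbr3 (1.02) were also past 2-fold in that last step, while Tgfb2 (−0.98) and Ltbp1 (−0.93) lay just short of it in the other direction on the CPM scale. Without the cells led by muscle fibre genes, Tgfb1 (1.23) was past 2-fold upward and Tgfb2 (−1.13) downward.

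Before E14.5 the named classes were few. In early mesenchymal progenitor-like cells, Tgfb2 went from 107.3 CPM at E11.5 to 208.7 at E13.5 (1.95-fold [1.81 to 2.1]), Ltbp3 from 5.33 to 14.9 (2.8-fold [2.05 to 3.83]) and Tgfbr2 from 13.4 to 25.7 (1.92-fold [1.54 to 2.37]), while Tgfbr1 went from 81.4 to 38.5 (0.473-fold [0.41 to 0.545]). Ltbp1 and Tgfbr3 had intervals that included 1 there. In perichondrial-like cells the Tgfb2 level was 329.5 CPM at E12.5 and 275.6 at E13.5, above every other class of the E13.5 library, where Tgfb2 ranged from 196.1 CPM in mitotic cells to 225.7 in unnamed cells. Ltbp2 in perichondrial-like cells rested on 2 UMIs at E12.5 and stood at 7.65 CPM a day later (17.3-fold [4.62 to 145.4]), whereas early mesenchymal progenitor-like cells of E13.5 had 0.166 CPM. At E14.5 Tgfb2 was at 140.1 CPM in tenocyte-like cells, 155.3 in distal limb bud mesenchyme-like cells and 56.5 in dermal fibroblast-like cells. The 4179 unnamed cells of that library stood above these, at 180.4 CPM [177.1 to 183.8]. Ltbp1 was highest in distal limb bud mesenchyme-like cells (126.8 CPM). It was at 74.8 to 79.4 CPM in mitotic, dermal fibroblast-like and tenocyte-like cells and at 74.5 in unnamed cells.

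The 1 class named at both ends of the course was that of mitotic cells. It gathers dividing cells of several types, in different clusters at different stages, so it does not hold the mixture of cells constant. The segment clustering, a separate one, named 1395 E16.5 proximal cells mitotic. Its 2 mitotic clusters had Tgfb1 levels of 7.8 and 57.8 CPM and Tgfb2 levels of 68.5 and 12.5 CPM in that library. The ratios here use the time course clustering, whose mitotic class held 906 E16.5 proximal cells at 9.33 CPM of Tgfb1. Within that class the E16.5 proximal over E11.5 ratio was 5.77 for Tgfb1, 3.88 for Tgfbr2 and 2.41 for Tgfbr3. For Ltbp3 it was 10.6, for Ltbp4 2.66 and for Ltbp2 91 [24.9 to 754.9]. It was 0.875 for Tgfb2, 0.589 for Tgfb3, 0.553 for Tgfbr1 and 1.1 [0.985 to 1.24] for Ltbp1, whose interval held 1. Between E14.5 and E16.5 proximal the dermal fibroblast-like and tenocyte-like classes could also be followed. Tgfb2 stood at a ratio of 0.24 [0.213 to 0.27] in dermal fibroblast-like cells and of 1.14 [1.07 to 1.21] in tenocyte-like cells, while Ltbp2 was 12.6-fold higher in the former and 2.9-fold higher in the latter. These ratios hold for the proximal segment. Tgfb2 in dermal fibroblast-like cells was at 56.5 CPM at E14.5 and 13.6 in the E16.5 proximal library. Those of the E16.5 distal library, named in the segment clustering, stood at 47 CPM.

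Of 50 other genes of the pathway, 43 had enough signal between E11.5 and E16.5 proximal, of which 20 were at least 2-fold higher and 7 at least 2-fold lower, with a median log2 ratio of 0.63 against −0.50 over all genes. The largest ratios upward were those of Postn, a matrix protein of tendon and periosteum (3.3 to 1212 CPM), Acvrl1, a type I receptor best known from endothelium (79.1-fold [38.3 to 196.9]), and the small proteoglycans Bgn (39.6-fold) and Dcn (29.9-fold), which bind TGF-beta. The largest downward were those of Cyr61 (0.129), the integrin gene Itgb8 (0.14) and the inhibitory Smads Smad6 (0.177) and Smad7 (0.181). By role, 1 of 12 signal carriers and regulators was higher and 5 were lower, 7 of 12 genes known to be induced by TGF-beta were higher and 1 was lower, 4 of 5 extracellular binders and 3 of 7 co-receptors were higher and none lower, and 5 of 14 genes of ligand activation were higher and 1 was lower, beside 12.7% higher and 29.5% lower over all genes.

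The same list gave 9 higher and 5 lower of 40 between E11.5 and E13.5, beside 4.78% and 4.02% of all genes, led by Postn (26.3-fold), Fmod (7.72-fold), Dcn (6.6-fold) and Bgn (5.64-fold) upward and by Smad7 (0.255), Skil (0.32), Ctgf (0.322) and Tagln (0.336) downward. Between E13.5 and E14.5 it gave 8 higher and 2 lower of 39, beside 4.51% and 5.81% of all genes. The higher ones were led by Pmepa1 (6.66-fold), Tagln (6.35-fold), Postn (4.32-fold) and Col1a1 (3.95-fold), and the lower ones were Cyr61 (0.351) and Itgb8 (0.478). Between E14.5 and E16.5 proximal it gave 12 higher and 4 lower of 41, beside 5.40% and 5.79% of all genes. The median log2 ratios of the list over these 3 steps were 0.02, 0.17 and 0.24, against −0.11, −0.18 and −0.17 over all genes. Acvrl1 (5.36-fold), the microfibril gene Fbn1 (4.51-fold), Cd109 (4.28-fold) and Cdkn1a (3.93-fold) led upward, and Smad6 (0.252), Tgfbi (0.392), Cyr61 (0.442) and Ctgf (0.481) were lower.

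At E16.5 the members were used by different cell classes. The cells of both segments were clustered together without the members and the pathway list, and clusters were named from markers, with the ending "-like". The named classes of at least 50 cells numbered 8 in the proximal and 9 in the distal library. Apart from cells led by muscle fibre genes, 2235 distal cells with 23.7% of that library's UMIs stayed unnamed and are not in the class orders below. They held 34.8% of its Ltbp1 UMIs (183.1 CPM), 33.5% of Tgfb3 (69.3 CPM) and 33.4% of Ltbp3 (120.1 CPM). Of Tgfb1, Tgfbr3 and Ltbp4 they held 14.1%, 17.4% and 20.9%. For 6 of the 10 members (Tgfb1, Tgfb2, Tgfbr3, Ltbp1, Ltbp3 and Ltbp4) the same class had the highest level in both segments. Over the alternatives this number ranged from 3 (cells called by 3 markers) to 9 (cells thinned to 3000 UMIs). Among the named classes, epithelial-like cells had the lowest level of all 10 members in the proximal and of 7 in the distal library. Neither of these counts was taken over all genes, so they are not read as particular to the members. The proximal cells led by muscle fibre genes, not among these classes, were lower still in Tgfb1 (2.31 against 4.52 CPM) and Ltbp2 (0.986 against 1.09). The names rest on clusters rebuilt here, so a class can differ from the study's own. Dermal fibroblast-like cells of the segments lay mostly in different clusters, of which the largest was 99.1% distal and the next 76.8% proximal, and 1 of the fibroblast-like clusters was 97.3% distal. The distal library held 119 chondrocyte-like cells and the proximal library 174 perichondrial-like cells.

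Among the ligands, Tgfb1 was highest in dermal fibroblast-like cells, at 41.9 CPM proximal and 38.2 distal, followed by pericyte-like cells (26.7) in the proximal and chondrocyte-like cells (32.4) in the distal library. The distal intervals of dermal fibroblast-like and chondrocyte-like cells overlapped, and with doublets left out chondrocyte-like cells were highest there. Tgfb2 had another order, with tenocyte-like cells at 154.3 and 246 CPM, perichondrial-like cells at 93.8 and 207.3, fibroblast-like cells at 78.5 and 182.7, and dermal fibroblast-like cells at 15.7 and 47. Its tenocyte-like level was 13.1-fold the epithelial-like level [11.8 to 14.5] in the proximal library. Tgfb3 shared the top pair of Tgfb2, at 61.1 and 72.7 CPM in tenocyte-like cells and 53.4 and 75.4 in perichondrial-like cells, whose intervals overlapped in both segments, and was low in dermal fibroblast-like (10.9 and 26.4) and epithelial-like cells (2.79 and 5.31).

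Tgfbr1 was the most evenly spread receptor over the named classes, with its highest class 5.21-fold the lowest in the proximal library, against 11-fold for Tgfbr2 and 6.75-fold for Tgfbr3. The lowest class was that of epithelial-like cells in each of these. Outside it the proximal levels ranged from 26.7 to 54.6 CPM for Tgfbr1, 45.1 to 90.7 for Tgfbr2 and 21.5 to 99.4 for Tgfbr3. The Tgfbr1 level was 54.6 and 58.7 CPM in tenocyte-like cells and 48.4 and 61.2 in perichondrial-like cells, and the first 6 classes of the proximal library each overlapped their neighbour in the order. Tgfbr2 was highest in perichondrial-like cells in the proximal library (90.7), or in fibroblast-like cells at Leiden resolution 2 and with cells called by 3 markers, and in fibroblast-like cells in the distal one (143.9, against 137.5 in perichondrial-like cells, with overlapping intervals), and lowest in epithelial-like cells (8.28 and 11.9). Tgfbr3 was highest in dermal fibroblast-like cells, at 99.4 and 138.6 CPM, and apart from every other class in both segments. Chondrocyte-like cells, which form the cartilage, had 21.5 and 19.7 CPM of Tgfbr3.

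Among the latent binding proteins, Ltbp1 and Ltbp3 were highest in perichondrial-like cells, the sheath around cartilage, in the distal library under every alternative tried. In the proximal library this call depended on the clustering, since at Leiden resolution 2, and with cells called by 3 markers, fibroblast-like cells were highest in Ltbp1 and tenocyte-like cells in Ltbp3. At resolution 1 Ltbp1 stood in perichondrial-like cells at 174.9 and 220.5 CPM, against 51.1 and 145.8 in chondrocyte-like cells and 17.6 and 24.9 in pericyte-like cells. Ltbp3 stood at 127.2 and 152.1 CPM in perichondrial-like and at 97 and 119.4 in tenocyte-like cells. Ltbp4 was highest in pericyte-like cells, the cells around small vessels, at 72.3 and 121.7 CPM (in fibroblast-like cells of the distal library where cells were called by 3 markers), and lowest in the distal limb bud mesenchyme-like cells of the distal library (21.1). Ltbp2 had no single highest class. Fibroblast-like (38.6), perichondrial-like (29.6) and tenocyte-like cells (27.9) led in the proximal library and perichondrial-like (54.5), chondrocyte-like (49.8) and tenocyte-like cells (48.9) in the distal one, each overlapping the next.

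Between the segments, every member was higher in the distal library, as were 56.3% of the 8380 genes tested (48.5% of 8368 with TMM scaling). The summed level of the 6 neuronal markers was also higher there, at 163 CPM against 36, and its part in these differences was not tested. Ltbp1 was 3.04-fold higher (126.2 CPM [124.4 to 127.9] against 41.4 [40.5 to 42.3]) and Ltbp4 2.04-fold (71.5 against 35 CPM), and these 2 of the 10 passed 2-fold, against 3.79% of the 8380 genes tested (2.04% lower). The other ratios were 1.89 for Tgfb2 (139.8 against 73.8 CPM), 1.72 for Tgfb3 (49.6 against 28.8), 1.72 for Tgfbr2 (101.5 against 59), 1.62 for Ltbp2 (25.2 against 15.5), 1.59 for Ltbp3 (86.2 against 54.1), 1.48 for Tgfb1 (20.1 against 13.6), 1.44 for Tgfbr3 (68.8 against 47.7) and 1.26 for Tgfbr1 (47.6 against 37.7). The median log2 ratio was 0.74 over the members and 0.09 over all genes, or 0.64 and −0.02 with TMM scaling, under which Ltbp1 alone passed 2-fold. Which members passed also turned on the cells summed. Without the cells led by muscle fibre genes Ltbp4 fell short (log2 ratio 0.84) and Tgfb2 passed (1.02), and with epithelial-like clusters included Tgfb2 passed (1.10) beside Ltbp1 and Ltbp4. The proximal library held 2436 cells of a cluster led by muscle fibre genes and the distal library 108, and the headers name different Cell Ranger versions for the 2 libraries. That cluster held 19% of the UMIs of the proximal library but 27.2% of its Tgfb2 UMIs and 6.25% of its Ltbp1 UMIs.

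The same ratio was taken within each of 14 clusters that held at least 50 cells of both segments. Tgfb2, Tgfbr2 and Ltbp4 were higher in the distal cells of all 14, with the interval of the ratio above 1 in 12, 12 and 13 of them and median ratios of 1.81, 1.48 and 1.64. Tgfb3 was higher in 13 (interval above 1 in 10, median 1.53), Tgfbr1 in 13 (8, 1.25), Tgfbr3 in 12 (8, 1.25) and Ltbp3 in 12 (8, 1.25). Ltbp1 was higher in 13, with the interval above 1 in 11 and below 1 in 1, where it was 0.626-fold, and its median was 1.54. Tgfb1 was higher in 7 of the 14, with the interval above 1 in 2 and a median ratio of 1.07, below its library-wide ratio of 1.48. Ltbp2 was uneven, with the interval above 1 in 9 clusters and below 1 in 3. The median log2 ratio of all genes within a cluster ranged from −0.00 to 0.14. Clusters are not replicates, since all of them come from the same 2 libraries.

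**Figure D2:**
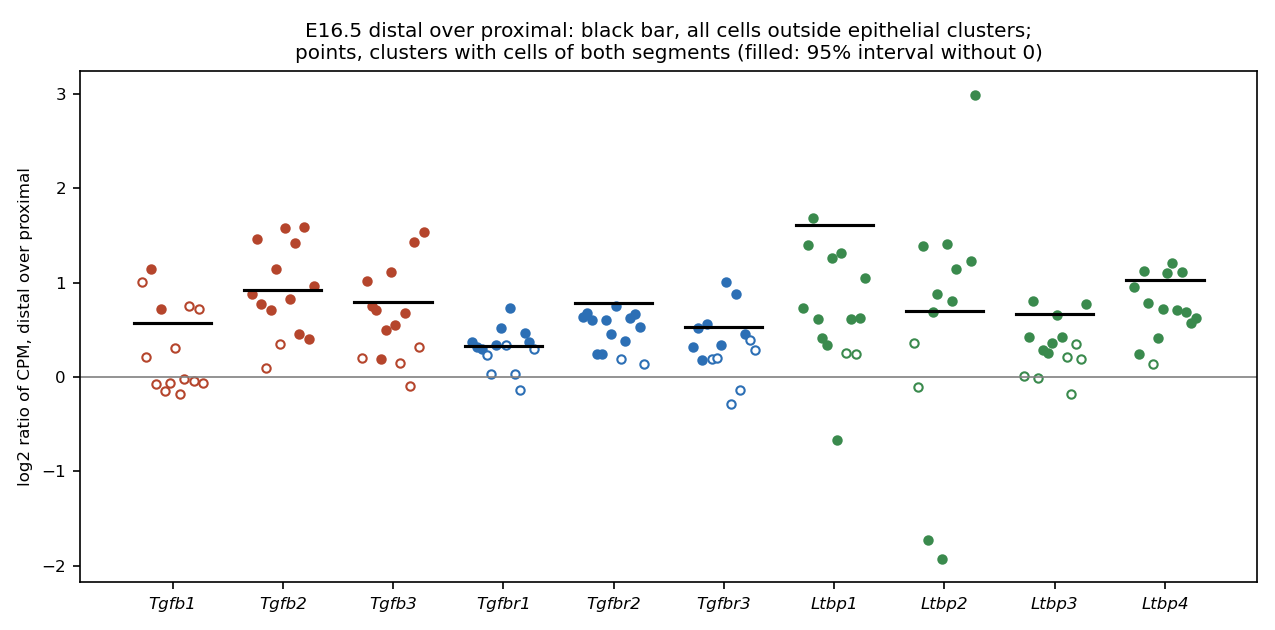
Ratio of the E16.5 distal to the E16.5 proximal level of each member (log scale), for the whole libraries and for each of 14 clusters with at least 50 cells of both segments. Ltbp1 has the highest library ratio, 3.04, and Tgfb1 the lowest median over clusters, 1.07. Ltbp2 clusters with no UMI in 1 segment are not drawn.

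Of the other genes of the pathway, 4 of 41 were at least 2-fold higher in the distal library and none was lower, beside 3.79% and 2.04% of all genes, with a median log2 ratio of 0.28 against 0.09 over all genes. These were Ctgf (3.3-fold), Tgfbi (2.73-fold) and Cyr61 (2.09-fold), known as genes induced by TGF-beta, and the inhibitory Smad7 (2.46-fold).

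At E11.5 the sorted cells were compared with the whole limb, the 1 comparison with a replicated arm. The test was edgeR's quasi-likelihood test on UMIs summed over mesenchymal cells (3154 sorted, 5080 and 5328 whole limb), with Benjamini-Hochberg adjustment over 15052 genes and fold changes on the TMM scale. With 1 library against 2 it had 1 residual degree of freedom. Its p-values measure only the spread between the 2 whole limb libraries, which may be technical. The sorted arm was 1 library, so library and sort cannot be told apart. Its barcodes went down to 500 UMIs, against 2396 and 2274 in whole limb 1 and 2. The paper places tdTomato+ cells at this stage mostly in the proximal limb, while the whole limb libraries took undivided limbs, so position was not matched. Of the 10 members 7 were higher and 1 was lower in the sorted cells at an adjusted p under 0.05, where 26.9% of all genes were higher and 26.4% lower. The median log2 fold change was 0.80 over the members and 0.01 over all genes.

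Tgfb3 and Ltbp4 had the widest gap. Tgfb3 was at 51.2 CPM in the sorted library and at 12.3 and 12.8 in the whole limb libraries, a log2 fold change of 1.85 ± 0.12 (SE, edgeR adjusted p = 2.2e-49). Ltbp4 was at 14.1 CPM against 3.35 and 3.59, a log2 fold change of 1.85 ± 0.16 (edgeR adjusted p = 1.8e-28). Ltbp3 was at 5.14 CPM against 1.52 and 1.46 (1.60 ± 0.22, edgeR adjusted p = 3.5e-12). In each of these 3 genes the sorted library lay above both whole limb libraries, whose own values were close.

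Tgfbr2 and Tgfbr3, the receptor genes with higher levels at later stages, were also higher in the sorted cells. Tgfbr2 was at 14.3 CPM against 4.68 and 5.47 (log2 fold change 1.31 ± 0.16, edgeR adjusted p = 5.9e-16), and Tgfbr3 at 15.3 CPM against 4.7 and 5.98 (1.34 ± 0.15, edgeR adjusted p = 5.3e-17). Leaving out a whole limb library moved the log2 fold change of Tgfbr3 to 1.16 (without the first) and 1.54 (without the second), and that of Tgfbr2 to 1.19 and 1.45. Smaller differences were called for Tgfbr1, at 80.8 CPM against 57.9 and 58.4 (0.30 ± 0.10, edgeR adjusted p = 0.0064), and for Tgfb2, at 96.4 CPM against 72.3 and 73.4 (0.22 ± 0.09, edgeR adjusted p = 0.033). Ltbp1 was called lower, at 32.8 CPM against 35.5 and 34.4 (−0.27 ± 0.12, edgeR adjusted p = 0.046), but its direction turned with cells thinned to 3000 UMIs (0.13) and the call was also lost with doublets left out and over all filtered cells. With DESeq2 or without the filter on low counts these 3 calls were lost, with adjusted p-values of 0.099 and 0.077 for Tgfbr1, 0.23 and 0.13 for Tgfb2, and 0.11 and 0.097 for Ltbp1. Tgfb1 (1.6 CPM against 1.27 and 1.42) and Ltbp2 (0.192 against 0.193 and 0.34, from 6 UMIs in the sorted library) were not called, with edgeR adjusted p-values of 0.86 and 0.45. Over all filtered cells, blood and vessel cells included, Tgfb1 turned to a log2 fold change of −0.49 and was called lower (edgeR adjusted p = 0.048, range over its alternatives 0.048 to 0.99).

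**Figure D3:**
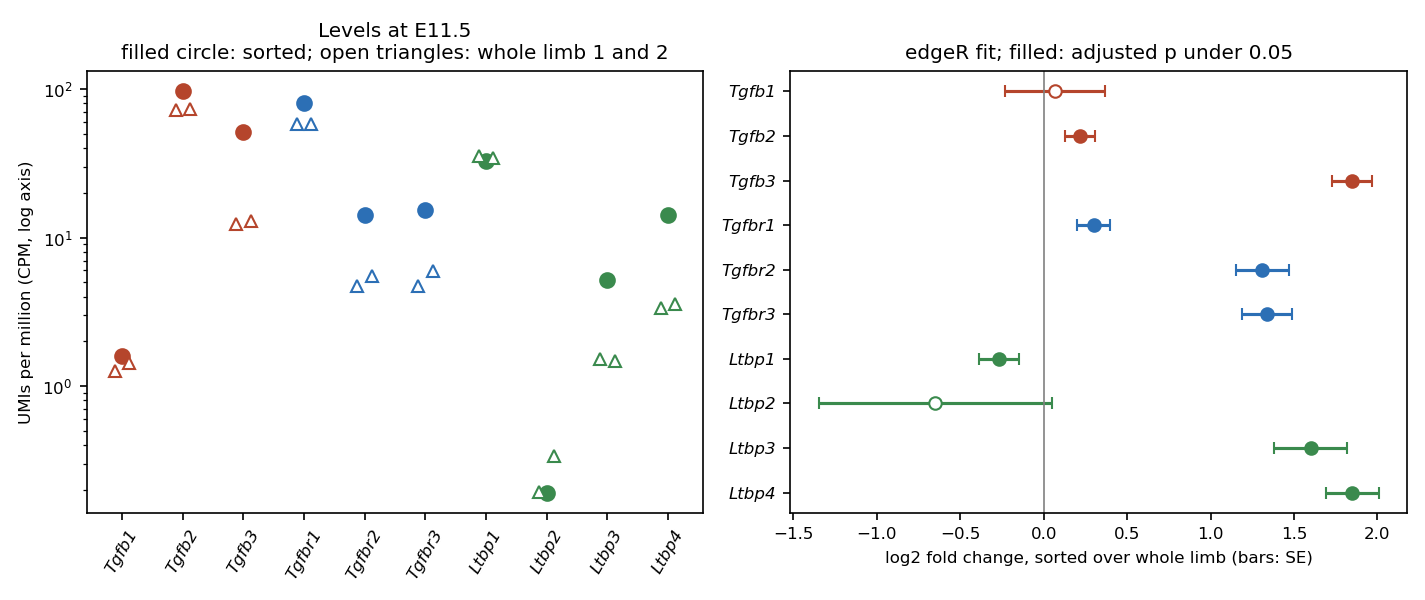
Level of each member in the mesenchymal cells of the E11.5 sorted library and both whole limb libraries (CPM, log scale), beside its edgeR log2 fold change with the SE as bars. Tgfb3 stands at 51.2 CPM against 12.3 and 12.8, while Ltbp1 stands at 32.8 against 35.5 and 34.4 CPM.

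The mesenchyme of the whole limb differed in its classes, and no named class held at least 50 cells in both the sorted and the whole limb libraries. For 6 members the lower of the sorted classes still lay above the highest whole limb class, a description with no test. The share of all genes with such a gap was not counted, so the number is not read as particular to the members. For Ltbp3 the intervals of these classes overlapped (4.2 to 6.05 against 1.68 to 4.77 CPM). Tgfb3 was at 51.5 and 53.7 CPM in the unnamed and fibrogenic progenitor-like sorted cells and between 8.19 and 23.1 in the mesenchymal classes of the whole limb. The lowest sorted and highest whole limb values were 13.6 and 6.98 CPM for Ltbp4, 5.06 and 2.94 for Ltbp3, 14.1 and 9.01 for Tgfbr2, 13.6 and 8.37 for Tgfbr3 and 79.7 and 67.4 for Tgfbr1. In Tgfb2 and Ltbp1 whole limb classes instead lay both above and below the sorted ones. Other members varied among whole limb classes as well, such as Ltbp4 from 1.57 to 6.98 CPM. Tgfb2 was at 26.5 and 24.6 CPM in distal limb bud mesenchyme-like cells of whole limb libraries 1 and 2, and at 122.7 and 112 in chondrocyte-like and 111.7 and 113.9 in unnamed cells, against 67.5 in the fibrogenic progenitor-like and 105 in the unnamed sorted cells. Ltbp1 was at 51.3 CPM in the distal limb bud mesenchyme-like cells of both libraries and between 20.8 and 35.7 in the other mesenchymal classes.

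Of the other genes of the pathway, 48 of 50 were tested at E11.5, of which 11 were higher and 16 lower in the sorted cells, near the 26.9% and 26.4% of all genes, with a median log2 fold change of −0.10 against 0.01 over all genes. Among the called genes that reached 10 CPM, the largest upward log2 fold changes were those of Dcn (3.78), Col1a1 (1.47), Itgb8 (1.29), an integrin subunit that activates latent TGF-beta, and Col3a1 (1.12). Fmod (4.76, at 7.92 CPM against 0.301 and 0.212) and Postn (1.98, at 3.2 CPM against 0.816 and 0.615) were higher at lower levels. Among genes that reached 10 CPM, the largest downward were those of Bambi (−1.75), a pseudoreceptor that dampens signalling, Cdkn1a (−0.92), Smad6 (−0.73) and Zfyve9 (−0.73), an adaptor that brings Smads to the receptor. By role, 4 genes of ligand activation were higher and 3 lower of 14, none and 4 of 7 co-receptors, 1 and 5 of 12 signal carriers, 2 and 1 of 5 extracellular binders, and 4 and 3 of 12 induced genes.

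Members were last compared with all genes by their pattern over 30 sums of cells (named class by sorted library, log2 of CPM + 1, 8437 genes). These correlations describe sums that share libraries and depth, and no p is given. Tgfb2 and Tgfb3 were the members most alike (Pearson r 0.92), and Tgfb3 was among the 3 genes most like Tgfb2, after Pdp1 (0.93). Next among member pairs came Ltbp2 with Ltbp3 (0.85), Tgfb3 with Tgfbr1 (0.85) and Tgfbr2 with Ltbp3 (0.83). The gene most like Tgfb3 was Tgfbi (0.93), like Tgfb1 Nin (0.90) and then Runx1 (0.87), like Tgfbr1 Lats2 (0.93), like Tgfbr2 Fam102b (0.95) and like Tgfbr3 Adam33 (0.89) and then Dcn (0.87). Among the latent binding proteins these were Cdon (0.93) and Disp1 (0.92), both components of hedgehog signalling, for Ltbp1, C1qtnf3 (0.92) for Ltbp2, Fgf2 and Ogn (0.92 each) for Ltbp3, and Arhgap6 and Map4 (0.89 each) for Ltbp4.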

How the data were processed

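UMI counts per gene and cell barcode, as deposited by the authors, were analysed for 6 sorted libraries and 2 whole limb libraries. Per the file headers the authors counted them with Cell Ranger 3.0.2 (5 sorted libraries) or 6.0.1 (E16.5 distal), on a modified mm10 reference per the labels. For the whole limb libraries no header gave the version. The paper's reporting summary names a single Cell Ranger version for the single-cell data, which differs from those in the headers. The study's limit of 3000 UMIs per cell was used, together with a limit of 10% mitochondrial UMIs, and each library's 31500092 to 234893903 kept UMIs set the counting error. Groups were taken from the labels. Cells were clustered with scanpy 1.11.5 and leidenalg 0.10.2 (2000 variable genes, 50 principal components, 25 neighbours, resolution 1), without the members, the pathway list, Hic1, the transgenes, Hox, mitochondrial and sex-linked genes. A cluster was named from at least 3 markers at a log2 fold of 1 or more. Epithelial-like clusters were left out of library sums, and clusters led by muscle fibre genes stayed unnamed, both rules set after the clusters were seen. Doublets were not removed, because the automatic threshold of scrublet marked at most 0.126% of a library. Ratios of single libraries have exact conditional binomial 95% intervals, and a 2-fold difference was counted where the higher library reached 10 CPM. Intervals and floors cover counting error only.

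The E11.5 comparison used edgeR 4.0.16 under R 4.3.3 (quasi-likelihood fit) on summed counts with its default filter on low counts and TMM scaling, and DESeq2 1.42.0 was an alternative. In counts simulated for that comparison over 15052 genes, edgeR called 200 of 200 genes changed 4-fold, with 10 false calls, and DESeq2 193, with 1 false call. The simulation used the spread fitted here and no library effect on the sorted arm, and in the data 8028 genes were called. It therefore does not measure the error of the calls in the data, least of all of small fold changes. All 10 members are named, and of the pathway list the 4 genes with the largest fold in each direction at 10 CPM or more. Of all genes at a mean of 10 CPM or more the 3 most correlated with each member were found. The members and lists were chosen with earlier results of these data known. A second identifier named Ltbp4 had 0 UMIs in every library and was not used. Annotation was GENCODE M21 and promoters were from RefSeq.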

Additional observations from a re-analysis of the deposited data

How the results depend on the processing

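Each sorted stage up to E14.5 and each E16.5 segment was 1 library, and the kit changed between E13.5 and E14.5. Library and condition therefore cannot be told apart in any ratio between stages or segments, nor between sorted and whole limb cells at E11.5. No paired analysis was possible because every sorted group has 1 library, and only the E11.5 whole limb group has a replicate. The planned removal of doublets by scrublet was not run, since its calls failed. In its place cells with the highest doublet scores were left out, an alternative chosen after seeing the data, as was leaving out cells led by muscle fibre genes. Doublets left out and no mitochondrial limit left the 50 ratios between single libraries within their intervals. The minimum CPM cannot move a ratio and only decides which are counted. Because of it Ltbp2 (15.5-fold between E11.5 and E13.5) and Tgfb1 (2.15-fold between E13.5 and E14.5) were not counted. TMM scaling moved 37 of the 50 ratios past their interval, epithelial clusters 27, muscle fibre cells 19 and thinning to 3000 UMIs 24 of the 48 it could give. Ltbp2 had no UMI at E11.5 after thinning, so its ratios to that stage gave no value. In the count of 1 member lower at E16.5 proximal than at E11.5, TMM scaling gave 0 and epithelial clusters included gave 2. Between E14.5 and E16.5 proximal, where 1 member was higher and 0 lower, TMM scaling gave 3 higher and 3 in all, epithelial clusters included and thinning each gave 2 lower and 3 in all, and leaving out muscle fibre cells gave 2 higher, 1 lower and 3 in all. Between the segments TMM scaling gave 1 higher and 1 in all in place of 2, and leaving out muscle fibre cells kept the number at 2 with Tgfb2 in place of Ltbp4. At E11.5 the 8 member calls (7 higher, 1 lower) became 5 with DESeq2 and 5 without the filter, with 0 lower in both. After thinning 6 of the 9 members tested were higher and 0 lower, and with doublets left out 7 were higher and 0 lower. The 27 pathway calls became 16 without the filter, with 7 lower in place of 16. Over all genes 8028 calls (4051 higher, 3977 lower) became 4892 with DESeq2, 1914 of them higher, and 4138 without the filter, 1986 higher and 2152 lower. Tgfb1 turned from a log2 fold change of 0.07 to −0.49 over all filtered cells (edgeR adjusted p = 0.048, range over the alternatives 0.048 to 0.99) and to −0.05 after thinning, and Ltbp1 from −0.27 to 0.13 after thinning. Leaving out a whole limb library leaves 1 against 1 and no test, and beyond Tgfbr3 no member's fold change moved by more than its SE from the value with both. The 6 members with the same highest class in both segments became 3 with cells called by 3 markers, 9 after thinning and 5 each at Leiden resolution 2 and with doublets left out. The causes of these shifts were not tested.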
